A study of Drosophila melanogaster with 4 samples.

Results

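Maleless (MLE) peaks of male Drosophila melanogaster embryos from CLAMP-depleted mothers were compared between 2 ages, 0-2 h and 2-4 h after egg laying. All peaks of the 2 CLAMP RNAi lists on the X, on the large autosome arms (2L, 2R, 3L and 3R) and on chromosome 4 were taken, 22489 at 0-2 h and 15890 at 2-4 h, which makes 38379 of the 91651 peaks in the 4 lists of the series. A peak counted as found at both ages when 1 base or more lay in common with a peak of the other list. By this rule 9547 peaks of the 0-2 h list, matched by 9618 peaks of the 2-4 h list, were found at both ages, 12942 were found at 0-2 h only and 6272 at 2-4 h only.

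MLE is an RNA and DNA helicase and a subunit of the male-specific lethal (MSL) complex, which raises transcription of the single male X chromosome. The complex also holds the proteins MSL1, MSL2, MSL3 and MOF, a histone acetyltransferase, and the non-coding roX RNAs, which MLE remodels. CLAMP is a zinc finger protein that binds GA repeats, opens chromatin and helps the MSL complex to find the X. Early embryos live on RNA and protein loaded by the mother until their own genome is switched on at the maternal to zygotic transition, which separates both ages.

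MLE was mapped by CUT&RUN: a nuclease tethered to the antibody cuts chromatin around bound sites, and the released DNA is sequenced. Whole male embryos were obtained with meiotic drive stocks from mothers carrying MTD-GAL4, a driver active in the female germ line, with an RNAi construct against CLAMP (mothers MTD-GAL4>CLAMPRNAi), or against GFP in the control groups (MTD-GAL4>GFPRNAi). The depletion thus concerns the CLAMP that the mother supplies, and the embryo's own gene was not mutated. The antibody was a rat anti-MLE. The titles of the 2-4 h samples call them pre-MZT, whereas the series design places that age after the transition, and samples were grouped by hours and by the genotype of the mother. The design text gives 2 replicates per genotype and age, and 1 peak list per group was analysed here, so there is no replicate check, intervals below are 95% intervals of counting error over peaks, and no p-value can be given. Neither the level of CLAMP nor that of any RNA was measured in these samples, and a peak missing at 1 age cannot tell apart fewer nuclei with bound MLE and less MLE per nucleus.

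The 2 lists also differed in ways that move with age and cannot be told apart from it. The 0-2 h list covered 7.47 Mb, or 5.58% of the summed arms, and the 2-4 h list 4.66 Mb, or 3.48%. The median score, the authors' own value of peak strength, was 61.0 at 0-2 h and 32.0 at 2-4 h, and the highest scores were 1915432 and 124978. The 10 commonest scores held 36.4% of the 0-2 h peaks and 68.0% of the 2-4 h peaks, against 44.8% and 25.9% in the control lists of the same ages. The design text gives 7000000 to 10000000 reads per sample on average, the depth behind each list is not known, and scores were ranked only within a list, as the percentage of peaks that a given peak equals or exceeds.

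Of the 0-2 h peaks, 42.5% (41.8% to 43.1%) were found again at 2-4 h. In the other direction, 39.5% (38.7% to 40.2%) of the 2-4 h peaks had no 0-2 h counterpart. Both control lists, which have the same ages, shared more. There 64.8% (64.3% to 65.4%) of 0-2 h peaks were found at 2-4 h, a difference of -22.4 percentage points (-23.2 to -21.5) between CLAMP RNAi and control, and 74.0% of 2-4 h peaks were found at 0-2 h against 60.5% with CLAMP RNAi. With each list cut to its 15890 strongest peaks, 51.5% of 0-2 h peaks were found at 2-4 h with CLAMP RNAi and 70.2% in the control, a difference of -18.7 points (-19.8 to -17.6). The smaller overlap between ages with CLAMP RNAi was thus present at equal list length, as a difference between lists. That length is the whole CLAMP RNAi 2-4 h list, which kept its weakest peaks. The control lists were cut to it from 28246 and 25026 peaks. Peak strength is therefore not matched by the cut, which cannot show the difference at like strength.

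Stronger 0-2 h peaks were found again more often. In the weakest bin of the 0-2 h list, with scores of 13 to 22, 18.2% (16.5% to 20.1%) of peaks were found at 2-4 h. In the strongest bin, with scores of 420 and above, 94.5% (93.5% to 95.4%) were found, which is 2128 of 2251 peaks. Of the strongest 1%, 222 of 225 had a counterpart. Of the 2-4 h peaks, 46.9% (42.3% to 51.5%) were found at 0-2 h in the weakest bin, 39.7% in the next and 91.1% (89.6% to 92.4%) in the strongest, and 158 of its strongest 159 peaks had a 0-2 h counterpart. Control peaks were found more often than CLAMP RNAi peaks in each bin of the 0-2 h lists, with 52.6% against 27.2% in the fifth bin from below and 100% against 94.5% in the highest.

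**Figure D1:**
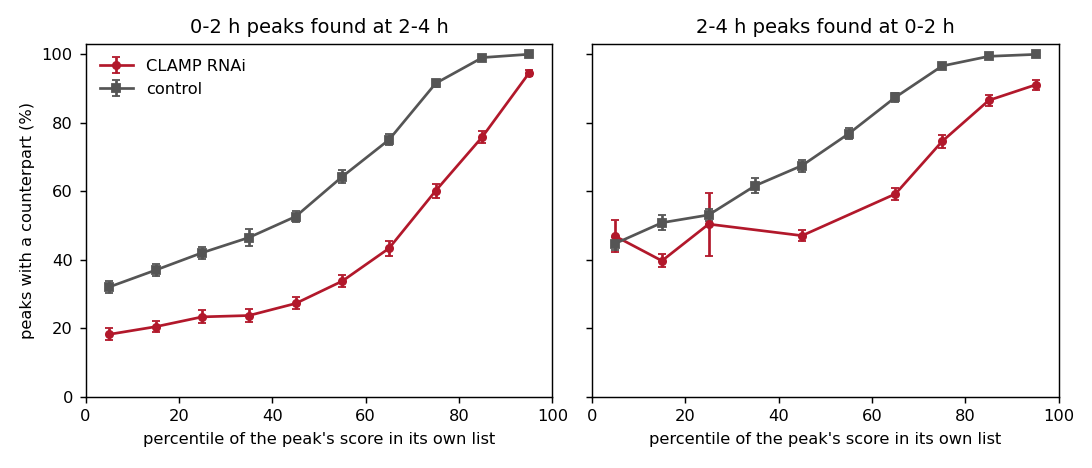
Share of peaks with a counterpart at the other age (vertical axis, %) by the percentile of the peak's score in its own list (horizontal axis, bins of 10 points; some bins of the CLAMP RNAi 2-4 h list are empty because of tied scores), for CLAMP RNAi and control lists. Bars are exact 95% intervals of counting error. For CLAMP RNAi the share rises from 18.2% to 94.5% at 0-2 h, below the control curve in each bin of the left panel.

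Scores of matched peaks were compared by rank. Over the 9547 matched 0-2 h peaks, Spearman's rank correlation of the scores at both ages was 0.53, and over the 18308 matched control peaks it was 0.74. This describes sites that share their library, and the 2-4 h CLAMP RNAi list, with 68.0% of its peaks on 10 scores, holds the most ties. Ranks given below for a site in lists of different length and scale are descriptions and show no change of MLE.

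Control embryos, which the classes did not use, separated the sites further. Peaks found at both ages mostly had control counterparts: 90.2% in control 0-2 h, 93.1% in control 2-4 h and 87.5% (86.8% to 88.1%) in both. Of the peaks found at 0-2 h only, 64.6% (63.8% to 65.5%) had a peak in control 2-4 h, so 8365 sites without a CLAMP RNAi peak at 2-4 h did carry one in control embryos of that age. In both control lists lay 51.8% of them, and in neither 24.5% (23.7% to 25.2%). Peaks found at 2-4 h only were different: 67.4% (66.2% to 68.6%), or 4227, were in neither control list, 22.0% (21.0% to 23.1%) were in control 2-4 h and 12.3% in both. The difference between the 2-4 h only and 0-2 h only classes in the share with a control 2-4 h peak was 42.6 points (41.3 to 43.9).

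The same split was seen among strong sites. In the strongest bin of the 0-2 h list, 123 peaks were absent at 2-4 h, and 117 of these were present in control 2-4 h, at a median of 91.2% of that list. In the strongest bin of the 2-4 h list, 143 peaks were absent at 0-2 h, and 56 of these were in control 2-4 h, at a median of 32.5%, while 76 were in neither control list. Strong sites found at 0-2 h only were therefore mostly strong sites of control embryos, and strong sites found at 2-4 h only were mostly weak or missing there.

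**Figure D2:**
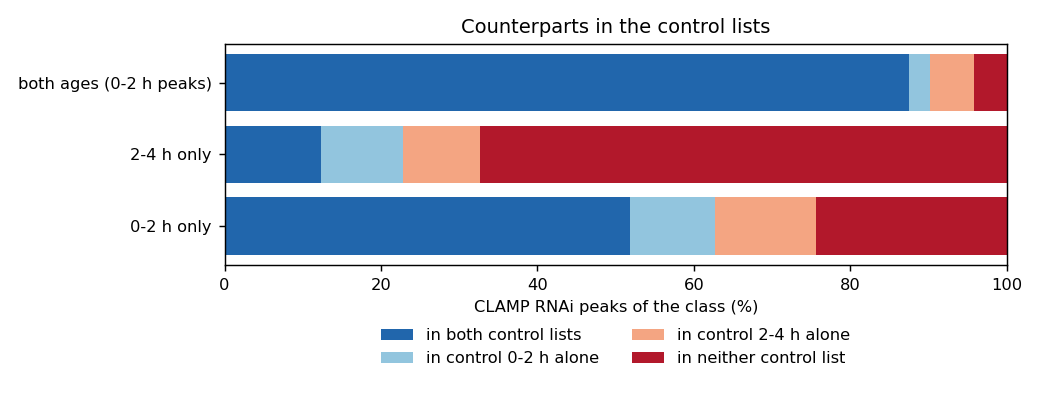
Share of CLAMP RNAi peaks of each class (horizontal axis, %) that have a counterpart in both control lists, in 1 of them or in neither. Peaks in neither control list make up 24.5% of the class found at 0-2 h only, 67.4% of the class found at 2-4 h only and 4.16% of the class found at both ages.

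Peaks found at 1 age were narrower than those found at both. The median width was 380 bp (quartiles 362 and 389 bp) for 0-2 h peaks found at both ages and 258 bp (200 and 376 bp) for those found at 0-2 h only. For 2-4 h peaks it was 363 bp for those found at both ages and 200 bp for those found at 2-4 h only, where 56.1% had the lowest width of 200 bp. Widths clustered at 200 bp and near 380 bp in each class, so the classes differ in the balance of these 2 forms. In matched pairs the 2-4 h peak was narrower in 6253 and wider in 2433, the median midpoint offset was 52 bp, and 520 pairs had identical ends. The control pairs lay closer, with a median offset of 29 bp.

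**Figure D3:**
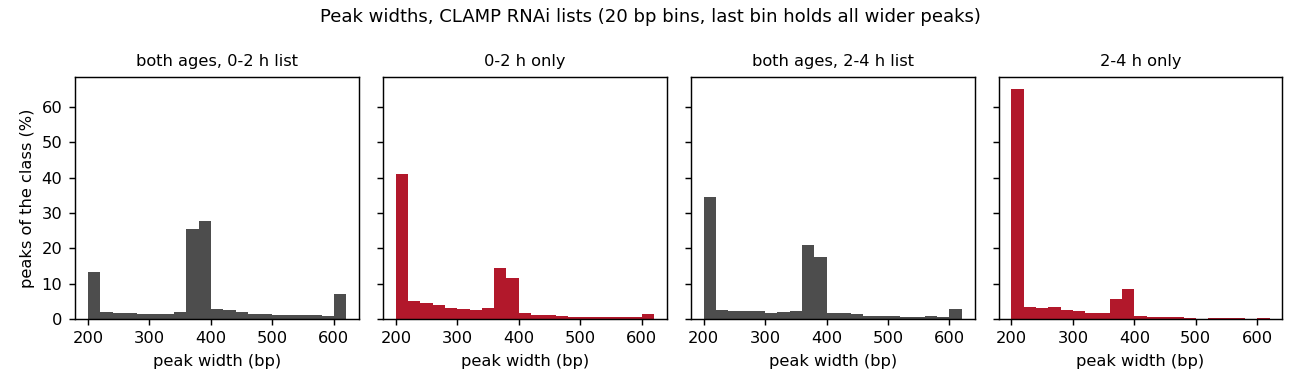
Distribution of peak width (horizontal axis, bp, bins of 20 bp, the last bin holding all wider peaks) as the share of each class (vertical axis, %). Peaks of 200 bp make up 6.86% and 28.1% of the 0-2 h list found at both ages and at 0-2 h only, and 23.9% and 56.1% of the 2-4 h list found at both ages and at 2-4 h only.

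Distances to the other age were then measured. The median gap to the nearest peak of the other list was 2351 bp for peaks found at 0-2 h only and 1659 bp for peaks found at 2-4 h only. Within 5000 bp lay 74.8% and 82.6% of them. The part of density, 151.1 to 247.6 peaks per Mb at 0-2 h and 106.3 to 177.0 at 2-4 h on autosomes and X, in these distances was not tested. Gaps over 50 kb were seen for 9 peaks found at 0-2 h only and 5 found at 2-4 h only.

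The X chromosome, on which the MSL complex acts in males, kept more of its peaks. Of the X peaks at 0-2 h, 49.5% (48.2% to 50.8%) were found at 2-4 h, against 40.0% on autosomes, a difference of 9.52 points (8.03 to 11.0). Of the X peaks at 2-4 h, 29.6% (28.3% to 31.1%) were without a 0-2 h counterpart, against 43.0% on autosomes, a difference of -13.3 points (-15.0 to -11.7). The X made up 30.2% (29.3% to 31.2%) of the peaks found at both ages, 22.7% (22.0% to 23.5%) of those found at 0-2 h only and 19.7% (18.7% to 20.7%) of those found at 2-4 h only, while 17.6% of the summed arms is X.

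Peak density moved with this difference at both ages, and median peak rank at 0-2 h. The X carried 247.6 peaks per Mb at 0-2 h against 151.1 on autosomes, and 177.0 against 106.3 at 2-4 h. X peaks at 0-2 h ranked at a median of 57.5% of the list and autosomal ones at 48.6%. At 2-4 h both medians were 61.9%, the rank of all peaks with the list's median score of 32.0. Such ties can hide a difference at the median. In the strongest bin of the 2-4 h list, 33.5% (489 of 1458) of peaks found at both ages lay on the X, against 30.5% at any score. For peaks found at 2-4 h only these shares were 25.2% (36 of 143) and 19.7%. Averaged over bins of equal score rank, the X minus autosome difference was 4.39 points for 0-2 h peaks found at 2-4 h and -11.0 points for 2-4 h peaks not found at 0-2 h. The control lists gave X minus autosome differences of 10.4 points (9.13 to 11.6) and -8.30 points (-9.47 to -7.11) for the same shares, and whether these differ from CLAMP RNAi was not tested. The part of density in the difference was not tested.

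Among the autosome arms the share found at both ages ran from 37.5% on 2L to 42.0% on 2R, with intervals that overlap for 2R, 3L and 3R. Chromosome 4, a small and largely heterochromatic chromosome, had 58 of 154 peaks found at 2-4 h, or 37.7% (30.0% to 45.8%). Of its 144 peaks at 2-4 h, 86 were without a 0-2 h counterpart, or 59.7% (51.2% to 67.8%), above each of the other arms. In bins of 1 Mb with at least 40 peaks at 0-2 h, the share found again was lowest on 2L from 15000001 to 16000000, with 40 of 159 peaks, and highest on 2R from 16000001 to 17000000, with 104 of 180. The Y, counted apart, held 97 peaks at 0-2 h, of which 62 or 63.9% (53.5% to 73.4%) were found at 2-4 h.

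**Figure D4:**
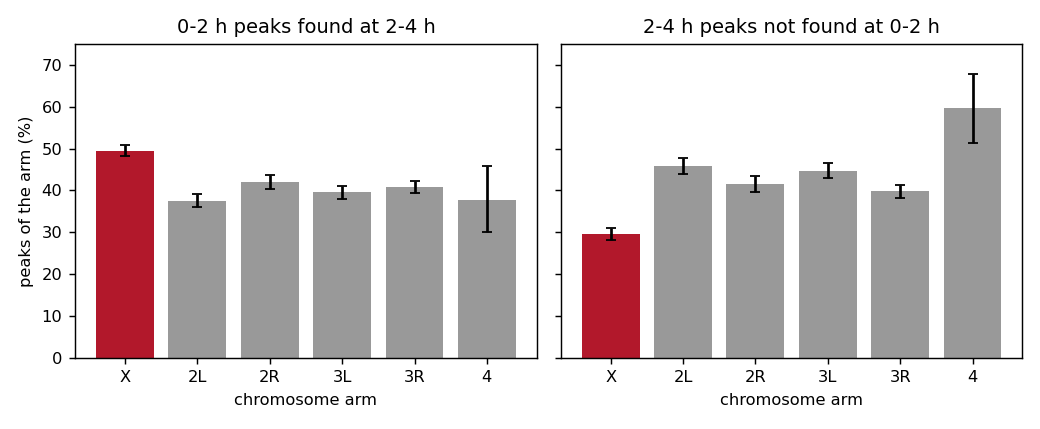
Share of 0-2 h CLAMP RNAi peaks found at 2-4 h (left) and of 2-4 h peaks not found at 0-2 h (right) on each chromosome arm (vertical axis, % of the arm's peaks). Bars are exact 95% intervals of counting error. The X has the highest value on the left (49.5%) and the lowest on the right (29.6%), and arm 4 has the highest on the right (59.7%).

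The strongest sites found at both ages were strong in control embryos too. Positions are those of build dm6, and genes are RefSeq genes that share a base with the peak. The leading 0-2 h peak lay in Cdep on 3R, a gene for a protein with a FERM domain, at 4919031 to 4919411 with identical ends at 2-4 h, and its score was 1915432 at 0-2 h and 47433 at 2-4 h. The site in gpp, which encodes the histone H3 lysine methyltransferase of the Dot1 family, lay at 3R 6416579 to 6416968, with scores of 194130 and 4004. In ctrip, the gene of a ubiquitin ligase, the site lay at 3R 4801975 to 4802377, with scores of 145349 and 1662. These sites stayed above 99% of both lists.

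A pair of other leading 0-2 h sites stood below 99% of the 2-4 h list. The site at 3L 21498395 to 21498822 overlaps Glg1, the gene of a Golgi glycoprotein, and the antisense gene asRNA:CR43933. It had a score of 177972 at 0-2 h, and at 2-4 h a score of 402, equal to or above 97.4% of that list. The site in heph, which encodes a polypyrimidine tract binding protein that controls splicing, lay at 3R 31954836 to 31955202 with a score of 167316 at 0-2 h. At 2-4 h it had a score of 546, equal to or above 98.1% of the list, and the control lists had scores of 9677 and 21143 there.

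The 2-4 h list was led by 3 sites that were not among the 8 strongest at 0-2 h, and Cdep followed at rank 4. Its strongest peak lay in Rok, a protein kinase gene, at X 16633612 to 16633992, with a score of 124978 at 2-4 h and 20739 at 0-2 h. The next lay in lncRNA:CR44999 at X 3453043 to 3453431, with scores of 118932 and 21364. Then followed Pka-R2, a regulatory subunit of protein kinase A, at 2R 10023809 to 10024199, with scores of 60596 and 10382. Rok, lncRNA:CR44999 and Pka-R2 stood at or above 99.3% of the 0-2 h list, so their sites were strong at both ages. Ranks further down the 0-2 h list were seen for Ten-a, a teneurin cell adhesion gene, whose site at X 12145120 to 12145501 had a score of 1861 at 0-2 h (96.9% of the list) and 21786 at 2-4 h, and for CG43658 at X 17485721 to 17486102, with scores of 2184 (97.3%) and 18755. On the X lay 5 of the 8 strongest 2-4 h peaks found at both ages and 0 of the 8 strongest 0-2 h ones. Over the strongest bin of each list the X share of peaks found at both ages was 34.6% (737 of 2128) at 0-2 h and 33.5% (489 of 1458) at 2-4 h.

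Of the peaks found at 0-2 h only, the strongest lay in CG42699 at X 5788673 to 5789077, with a score of 248938, the third highest of the list. It was followed by a site in hry, the pair-rule gene hairy, which encodes a bHLH repressor, at 3L 8676863 to 8677228 with a score of 24365. Both sites were strong in control 2-4 h, with scores of 77317 and 31753. The other 6 of the 8 strongest had lower ranks in the control lists, or were missing in 1 of them. The site in Rab10, a vesicle transport GTPase, at X 20254052 to 20254424 had a score of 6697, equal to or above 98.98% of its list, and stood at 81.5% of control 0-2 h and 80.4% of control 2-4 h.

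The site in Ptpmeg2, a tyrosine phosphatase gene, at X 9637907 to 9638277 stood at 98.7% with CLAMP RNAi at 0-2 h, at 53.9% of control 0-2 h and at 82.5% of control 2-4 h. The site in Alh, the gene of an AF10-type chromatin protein, at 3R 7121605 to 7121972 stood at 98.7%, 3.70% and 49.2% in the same lists. The site in cno, the gene of the junction protein afadin, at 3R 5188550 to 5188916 stood at 98.5%, was absent in control 0-2 h, and stood at 61.9% in control 2-4 h. Another site in ctrip, at 3R 4786579 to 4786948, stood at 98.7%, 77.2% and 71.2%. The site in Myo81F, a myosin gene of the pericentric part of 3R, at 2218278 to 2218651 stood at 99.4%, 87.6% and 90.02%. The 8 sites were chosen by their score at 0-2 h and their absence at 2-4 h, so these ranks support no difference.

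Peaks found at 2-4 h only stood at a median of 41.4% of their list, against 63.5% for 2-4 h peaks found at both ages. Those found at 0-2 h only stood at 37.1% of theirs. The strongest peak found at 2-4 h only had a score of 3654, equal to or above 99.8% of that list. It lay at 3R 28377980 to 28378359, 24360 bp from its nearest gene, Or98b, an odorant receptor gene. The site at 3R 16859499 to 16859880, in lncRNA:iab8 and MSAmiP of the bithorax complex, had a score of 999. The site in tmod, the gene of the actin capping protein tropomodulin, at 3R 30538872 to 30539253 had a score of 832, and that in futsch, a microtubule-associated protein gene, at X 1450252 to 1450630 a score of 556. The sites near Or98b and in tmod and futsch were in neither control list. The other 5 of the 8 strongest, in lncRNA:iab8, kairos, tbc, lncRNA:CR44553 and lncRNA:CR45725, had control 2-4 h counterparts, which stood at between 3.34% (lncRNA:CR45725) and 83.8% (tbc) of that list.

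Genes were then counted by the peaks that share a base with them. Of 17684 genes on the arms, 5578 (31.5%) held a peak at 0-2 h and 4442 (25.1%) at 2-4 h. Both lists reached 3521 genes (19.9%), the 0-2 h list alone 2057 (11.6%) and the 2-4 h list alone 921 (5.21%). Gene length went with these states. The median length was 9927 bp for genes with peaks in both lists, 2342 bp for genes of the 0-2 h list alone and 2211 bp for genes of the 2-4 h list alone, against 1710 bp over all genes. All 89 genes of 100 kb or more held peaks at both ages. The 0-2 h peaks found again made up 35.9% in genes under 2 kb and 47.1% in genes of 100 kb or more.

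Control embryos held peaks in most genes of the 0-2 h list alone, 70.3% of them at 2-4 h, and in 31.4% of the genes of the 2-4 h list alone, against 35.7% of all genes. Of the 290 tRNA genes, 62 (21.4%) held a peak at 0-2 h and 31 (10.7%) at 2-4 h, of which 23 did at both ages. Both shares are below those over all genes, 31.5% and 25.1%, which are longer. They are above those in genes under 2 kb, 14.2% and 9.46%, while tRNA genes have a median length of 73 bp. Midpoints lay inside genes for 73.6% of 0-2 h peaks found at both ages, 72.5% of those found at 0-2 h only and 69.5% (68.4% to 70.7%) of those found at 2-4 h only. The difference of 3.92 points (2.48 to 5.36) from the 2-4 h peaks found at both ages is larger than counting error.

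The genes with the most peaks were long and mostly the same in each class. In kirre, an immunoglobulin family adhesion gene on the X that acts in myoblast fusion, 130 peaks at 0-2 h and 78 at 2-4 h were found, and 57 of the 130 were found at both ages. In Myo81F on 3R, 53 of 108 peaks at 0-2 h were found again and 45 of 98 peaks at 2-4 h were found at that age only. In Ten-a, 47 of 87 were found again. In bru3, the gene of a Bruno family RNA-binding protein on 3L, 24 of 66 were found again and 42 were found at 0-2 h only. The gene sick on 2L had 9 of 29 peaks found again, with 18 of its 27 peaks at 2-4 h found at that age only, and dpr6, an immunoglobulin family gene of neuronal cell surfaces on 3L, had 7 of 23 found again and 17 of 25 at 2-4 h only. Both genes are named for their many peaks found at 2-4 h only, so these counts are a description.

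Of 2505 genes with at least 2 peaks at 0-2 h, 332 held 0 at 2-4 h, and of 1897 genes with at least 2 peaks at 2-4 h, 61 held 0 at 0-2 h. The genes with the most, named after their values were seen, were sNPF, the gene of short neuropeptide F on 2L, with 7 peaks at 0-2 h and 0 at 2-4 h, and kat80, a katanin subunit gene on the X, CG13293, CG42390, CG2747 and DIP-eta, an immunoglobulin family gene, with 5 each. The strongest of these peaks, in DIP-eta, had a score of 153, and each of these genes held peaks in both control lists, with 5 in control 2-4 h for sNPF. In the reverse direction CG10663 and dsb on 3L had 4 peaks at 2-4 h and 0 at 0-2 h, and GABA-B-R3, a metabotropic GABA receptor gene on 2L, had 3, as did CG1835, CG33958 and Gyf. None of these peaks had a score above 60, and 1 of the 3 in CG33958 overlapped a 0-2 h peak that lies outside the gene. These 6 genes all held control 0-2 h peaks, with 2 in CG10663 and 3 in dsb, and all but CG1835 and Gyf held control 2-4 h peaks.

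Peaks were also counted in windows of 100 kb, which held on average 9.65 peaks found at 0-2 h only, 7.12 found at both ages and 4.68 found at 2-4 h only. The window with the most peaks found at 0-2 h only, 28, was X 19800001 to 19900000, around Hers, pico and Nup205, where 11 were found at both ages and 8 at 2-4 h only. Next came 3L 10500001 to 10600000 in Rbfox1, a splicing regulator gene, with 25, and 2R 10500001 to 10600000 in lola and psq, BTB domain transcription factor genes, with 24. The window with the most peaks found at 2-4 h only, 18, was X 9300001 to 9400000, around mgl, the megalin gene, and lz, a Runx factor gene, and the next window, X 9400001 to 9500000 in mgl, was among the 3 with the most peaks found at both ages, 25. Most peaks found at both ages, 28, lay in X 3300001 to 3400000 around dnc, the cAMP phosphodiesterase gene dunce. The windows named here held 24 to 53 peaks in each control list, where a window held 21.1 on average at 0-2 h and 18.7 at 2-4 h.

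Gene groups were read against the shares over all genes. The groups hold longer genes than average, except the cuticular and ribosomal protein genes, and a longer gene holds a peak more often. Of genes of 2 to 10 kb, 39.7% held a peak at 0-2 h and 29.5% at 2-4 h, and of genes of 10 to 50 kb 91.9% and 86.9%. The longer class holds the median lengths of the GA-binding, Hox and axon guidance groups. The shorter holds those of the other groups of long genes. Of the genes of the MSL complex and its recruitment, 8 of 10 held a peak at 0-2 h and 6 at 2-4 h, and 11 of their 16 peaks at 0-2 h were found again, or 68.8% (41.3% to 89.0%), an interval that includes the 42.5% of the whole list.

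Clamp, the target of the RNAi, held peaks at 2L 22166560 to 22167417 with a score of 1724 and at 22167786 to 22168389 with a score of 1475 at 0-2 h. At 2-4 h the first site had a score of 50, against 17569 in control 2-4 h, and the second had no peak, while control 2-4 h had a score of 153 there. Both Clamp sites were thus in the upper 5% at 0-2 h, and 1 of them was left at 2-4 h, at 79.1% of the list.

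The RNA gene lncRNA:roX1 held 1 peak at each age, at X 3859837 to 3860219 with a score of 33, equal to or above 24.2% of the 0-2 h list, and at 3859649 to 3860029 with a score of 70, equal to or above 85.7% of the 2-4 h list. JIL-1, the gene of a histone H3 kinase enriched on the male X, held 2 sites at both ages on 3L, and the site at 11084283 to 11084663 had identical ends with scores of 85 and 372, or 64.0% and 97.2% of the lists. The msl-1 peak at 2L 18688304 to 18688680, with a score of 141, had a 2-4 h counterpart with a score of 17. At msl-2, which encodes the subunit made in males, the 1 peak, at 2L 3465721 to 3466047 with a score of 75, was found at 0-2 h only, and control 2-4 h had a score of 1049 there. The genes roX2 and mle held 0 CLAMP RNAi peaks at both ages. In control embryos roX2 held 2 peaks at 2-4 h and 0 at 0-2 h, while mle held 0 at both ages.

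The early activators and GA-binding factors held peaks in 7 of 8 genes at each age. In zld, the gene of the pioneer factor Zelda, the strongest site lay at X 19766736 to 19767163 with a score of 8186 at 0-2 h and 775 at 2-4 h, and 4 of its 9 peaks at 0-2 h were found again. In psq, the gene of the GA-binding BTB factor Pipsqueak, the site at 2R 10600538 to 10600916 had scores of 10523 and 2634, and 9 of 21 peaks were found again. In grh, the gene of the epithelial pioneer factor Grainyhead, the site at 2R 17824666 to 17825048 had scores of 26073 and 520. Trl, which encodes GAGA factor, had 1 of 3 peaks found again and Dref had 0 peaks at both ages. The leading sites of zld, psq and grh were thus among the strongest 2% at both ages. Of the weaker peaks in these genes, some were found at 1 age and others at both.

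Segmentation genes lay in 3 groups of 9 to 15 genes, to be read beside the fall from 31.5% to 25.1% over all genes. Of the pair-rule genes 7 of 9 held a peak at 0-2 h and 3 at 2-4 h, and the 3 were hry, opa and run. In opa, which encodes a late pioneer factor, the site at 3R 4867728 to 4868104 had a score of 31567 at 0-2 h and 1101 at 2-4 h. In hry, the strong site was found at 0-2 h only, and the 1 peak at 2-4 h was another, at 3L 8677360 to 8677559 with a score of 24. The genes odd, slp1, slp2 and ftz held peaks at 0-2 h only, with scores of at most 75, equal to or above 59.9% of the list.

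Of the gap genes 9 of 11 held a peak at 0-2 h and 6 at 2-4 h. The site in tll, the gene of the terminal nuclear receptor Tailless, at 3R 30853884 to 30854264 had identical ends at both ages with scores of 20175 and 305. Of the segment polarity genes 10 of 15 held a peak at 0-2 h and 6 at 2-4 h, and 13 of 49 peaks were found again, or 26.5% (14.9% to 41.1%). The interval lies below the 42.5% of the whole list. It includes the 38.2% of peaks found again in genes of 2 to 10 kb, the class of the group's median length of 9107 bp. Most of the group's peaks, however, lay in genes of 10 to 50 kb, among them 15 in nkd and 10 in inv. In that class 43.7% were found again, above the interval. The part of gene length in this share was not tested. In nkd, the gene of a Wingless antagonist on 3L, the site at 19026671 to 19027101 had a score equal to or above 99.2% of the 0-2 h list and 89.2% of the 2-4 h list, and a site at 19038997 to 19039376 was found at 2-4 h only with a score of 444. The genes mid, arm and dsh held 3 peaks each at 0-2 h and 0 at 2-4 h.

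All 8 Hox genes, which give segments their identity, held peaks at both ages. Of genes of 10 to 50 kb, the class of the group's median length of 30563 bp, 91.9% and 86.9% did at 0-2 h and 2-4 h. Of their 70 peaks at 0-2 h, 24 were found again, or 34.3% (23.3% to 46.6%), and of their 50 peaks at 2-4 h, 26 were found at that age only. In Ubx, 7 of 17 peaks at 0-2 h were found again and 10 of 17 at 2-4 h were found at that age only. In Abd-B the site at 3R 16934201 to 16934574 had a score of 1809 at 0-2 h and 71 at 2-4 h. Of the dorsoventral genes 14 of 22 (63.6%) held a peak at 0-2 h and 11 (50.0%) at 2-4 h, against 31.5% and 25.1% over all genes. Of their 72 peaks at 0-2 h, 31 were found again.

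The cellularisation genes, which act when the first cell membranes form, held a peak in 6 of 10 at 0-2 h and in 1 of 10 at 2-4 h. That gene was Abl, a tyrosine kinase gene, with 6 of 8 peaks found again. The genes bnk, Nin, dia, zip and halo had peaks at 0-2 h only, with scores of at most 85, and the control 2-4 h list had peaks in 7 of the 10 genes. Maternal determinants had a peak in 7 of 16 genes at 0-2 h and 9 at 2-4 h. The genes osk, gcl, stau and smg, whose products act in the germ plasm or in the clearance and placing of maternal RNA, held peaks at 2-4 h only, with scores of at most 32. Those in osk at 3R 8938190 to 8938499 and in smg at 3L 8991132 to 8991513 had a score of 24, and control lists had no peak at any of these sites. Elsewhere in the gene, stau held a peak in each control list, with scores of 33 and 21, and smg held 1 in control 2-4 h with a score of 28. In the reverse direction, the maternal determinants trk and tor held 1 peak each at 0-2 h only, with scores of 56 and 147. Apart from the peak in tor, at 77.0% of the 0-2 h list, these differences rest on peaks of low to middle rank. Those peaks stood at no more than 64.0% of the 0-2 h list and 61.9% of the 2-4 h list. With 1 list per age there is no spread to set them against.

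Among the maternal genes with strong peaks, pum, an RNA-binding repressor gene on 3R, had 23 of 50 peaks at 0-2 h found again. Its site at 9154962 to 9155341 had identical ends at both ages with a score of 466, equal to or above 90.7% of the 0-2 h list, and 10586, which is 99.9% of the 2-4 h list. In cad, a homeobox gene on 2L, the site at 20776018 to 20776396 had a score of 2702, equal to or above 97.7% of the 0-2 h list. At 2-4 h it had a score of 16, in the weakest bin of that list. In nanos, the gene of a translational repressor, the site at 3R 19159835 to 19160308 had a score of 95 at 0-2 h and 70 at 2-4 h, or 67.3% and 85.7% of the lists.

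Sex determination genes held a peak in 10 of 17 (58.8%) at 0-2 h and 8 (47.1%) at 2-4 h, against 31.5% and 25.1% over all genes. Of their 70 peaks at 0-2 h, 27 were found again. Sxl, the X-linked switch gene of the pathway, had 7 of 12 peaks found again. Its site at X 7074920 to 7075665 had a score of 242 at 0-2 h, equal to or above 84.3% of the list, and at 2-4 h the peak at 7075181 to 7075833 had a score of 1208, equal to or above 99.2%. The control lists had scores of 129 and 241 there. In dsx, the transcription factor gene at the end of the pathway, 1 of 9 peaks was found again, and the strongest, at 3R 7931647 to 7932068 with a score of 725, was found at 0-2 h only and had a score of 1012 in control 2-4 h. In fru, 13 of 36 peaks were found again.

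Splicing regulators held a peak in 20 of 28 genes at 0-2 h and 19 at 2-4 h, with 136 of 319 peaks found again, or 42.6% (37.1% to 48.3%), as over the whole list. In ps, the gene of the splicing factor Pasilla, the site at 3R 9442532 to 9442915 had a score equal to or above 90.3% of the 0-2 h list and 99.8% of the 2-4 h list, and the site at 9427823 to 9428188, with a score of 3314, was found at 0-2 h only. Hrb98DE, Hrb87F and B52, genes of abundant RNA-binding proteins, held peaks at 2-4 h only, with scores of at most 32, or 61.9% of the list. Genes of axon guidance and cell adhesion held a peak in 33 of 34 (97.1%) at 0-2 h and 31 (91.2%) at 2-4 h. In genes of 10 to 50 kb, the class of the group's median length, the shares were 91.9% and 86.9%. Of the group's 415 peaks at 0-2 h, 183 were found again, or 44.1% (39.3% to 49.0%). In Sema2a, a guidance cue gene, both leading sites at 2R 16507259 to 16507641 and 16512367 to 16512744 were found at both ages, with scores of 21815 and 12232 at 0-2 h and 518 and 1167 at 2-4 h.

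Polycomb group genes held a peak in 11 of 20 (55.0%) at 0-2 h and 9 (45.0%) at 2-4 h, against 31.5% and 25.1% over all genes. All 3 sites of Su(z)2 were found at both ages, the strongest at 2R 13002134 to 13002514 with scores of 4028 and 200. Short genes were closer to the background. Cytoplasmic ribosomal protein genes, active in nearly every cell, held a peak in 25 of 88 (28.4%) at 0-2 h and 16 (18.2%) at 2-4 h, with 12 of 29 peaks found again. Cuticular protein genes, which are silent in early embryos, held a peak in 18 of 87 (20.7%) and 12 (13.8%), with 5 of 26 peaks found again, or 19.2% (6.55% to 39.4%). The interval lies below the 42.5% of the whole list and includes the 35.9% in genes under 2 kb, the class of the group's median length of 875 bp. It also includes the 38.2% in genes of 2 to 10 kb. The 43.7% in genes of 10 to 50 kb, such as Cpr50Ca with 3 of the peaks, lies above it. In both groups the shares of genes lay below the 31.5% and 25.1% over all genes, which are longer at the median. They lay above the 14.2% and 9.46% in genes under 2 kb, the class of both median lengths. Each group also holds longer genes, and the part of length was not tested.

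**Figure D5:**
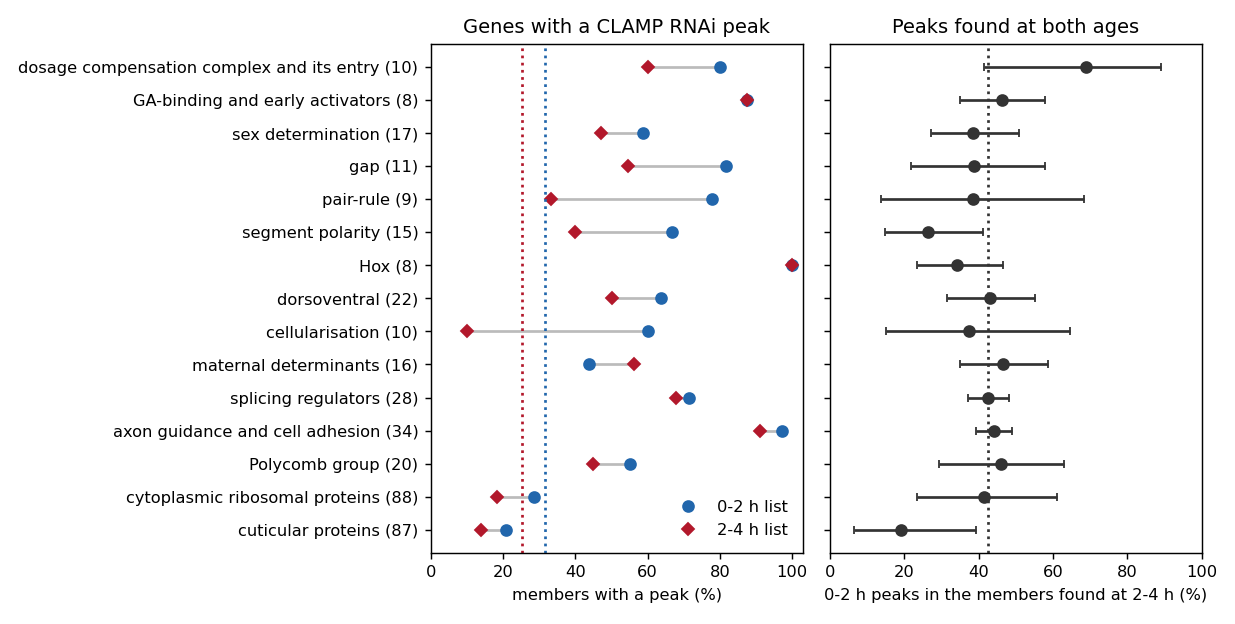
Left, share of the members of each gene group with a CLAMP RNAi peak at 0-2 h (circles) and 2-4 h (diamonds), with the share over all genes as dotted lines at 31.5% and 25.1%; group sizes stand in brackets. Right, share of the 0-2 h peaks in the members that were found at 2-4 h, with exact 95% intervals of counting error and the whole list at 42.5% as a dotted line. On the left, cellularisation genes stand at 60.0% and 10.0% and maternal determinants at 43.8% and 56.3%.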

How the data were processed

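The authors deposited 1 MACS-style list of peaks per group, holding coordinates, a peak's name and its score. The score is the authors' own value per peak, deposited as a whole number. Per the submitters' processing notes, the build was dm6 and the tools named, without roles, were FastQC, Trim Galore, BWA, Bowtie2, SAMtools, Picard 2.20.2 and MACS2. Threshold, control library and pooling of replicates are not given in the sources used here. Per the deposited peak names, each list came from 1 alignment without duplicates, and the names held 2 numbers for CLAMP RNAi 0-2 h and 0 for 2-4 h, of unstated meaning.

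Rows with equal ends were collapsed to 1 peak with the highest score (1548 repeats at 0-2 h, 67 at 2-4 h, on the arms). Overlap needed 1 base and was checked on simulated data. Printed positions are 1-based. Genes came from RefSeq, Release 6, the assembly of dm6, and the table gives no strand or exons, so gene parts are not named. No sequence was used here. Intervals are Clopper-Pearson, and Newcombe for differences of shares. Members and gene lists were chosen with earlier results of these data known, and symbols were updated to the table's. Names were taken from the 8 strongest peaks, the 6 genes with the most peaks and the 3 richest windows of 100 kb per class. Members of 15 gene lists were added, and not every selected peak, gene, window or member is printed. Scripts ran in Python 3.11.15 with pandas 2.3.3, numpy 2.4.6 and scipy 1.17.1.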

Additional observations from a re-analysis of the deposited data

Results flagged for a closer look

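Each value here changed with age in 1 direction with CLAMP RNAi and in the other in the control. With 1 list per group the difference between genotypes was not tested. Median peak width changed by -121 bp from 0-2 h to 2-4 h with CLAMP RNAi, from 366 to 245 bp, and by 11.0 bp in the control. The share of peaks at the lowest width of 200 bp changed by 17.5 percentage points with CLAMP RNAi and by -9.54 points in the control. The share of peaks on 2R changed by 0.263 points with CLAMP RNAi and by -0.577 points in the control, and that on 3L by 0.280 and -0.182 points. The share of midpoints inside genes changed by -1.02 points with CLAMP RNAi and by 0.181 points in the control.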

How the results depend on the processing

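Of 98 values recomputed under an alternative, 30 moved by less than their counting error or 1.5 times for counts of genes, and 68 moved. Below, the values of peaks found at both ages, at 0-2 h only and at 2-4 h only stand in that order unless named. Requiring 50% of the shorter peak gave 39.0% of 0-2 h peaks found at 2-4 h and 44.4% of 2-4 h peaks not found at 0-2 h. Control 0-2 h counterparts were then at 57.3% (0-2 h only) and 19.8% (2-4 h only), and control 2-4 h counterparts at 93.6%, 60.4% and 20.2%. Allowing a gap of 500 bp gave 49.9% and 31.9%, X shares of 21.3% (0-2 h only) and 17.7% (2-4 h only), and a median width of 378 bp (both ages). At equal list length the shares were 51.5% and 47.8%, the X share 23.5% (0-2 h only), the median widths 381 bp (both ages) and 335 bp (0-2 h only), the control 0-2 h shares 93.9%, 72.9% and 30.6%, the control 2-4 h shares 96.2%, 75.4% and 31.1%, and 1342 genes were in the 0-2 h list alone. With the 1000 strongest peaks they were 57.8% and 42.2%, the X shares 36.9%, 32.0% and 29.4%, the median widths 382, 381 and 381 bp, the control 0-2 h shares 99.8%, 98.8% and 81.0%, and the control 2-4 h shares 100%, 99.5% and 89.3%. Without peaks of the lowest width they were 38.4% and 30.7%, the X shares 32.7%, 24.0% and 22.1%, the median widths 381, 364 and 310 bp, the control 0-2 h shares 94.1%, 74.0% and 31.4%, and the control 2-4 h shares 96.7%, 76.8% and 32.5%. With a score of 50 or more they were 24.0% and 19.1%, the X shares 33.9%, 26.6% and 21.3%, the median widths 381, 377 and 381 bp, the control 0-2 h shares 98.1%, 85.1% and 39.9%, the control 2-4 h shares 99.2%, 87.9% and 47.0%, and genes numbered 1675 in both lists, 2376 in the 0-2 h list alone and 162 in the 2-4 h list alone. There the genes of the 0-2 h list alone outnumber those of both lists, the reverse of 2057 against 3521 with all peaks. The order of the X shares and of the control shares over the 3 classes was kept in each of these settings for which it was computed (the control shares not with the gap). The narrower width of peaks found at 1 age was not seen among the 1000 strongest peaks, and with a score of 50 or more it was not seen at 2-4 h only, which turns the order of the 2 classes found at 1 age (258 and 200 bp with all peaks). The causes were not tested.

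No paired analysis was possible because each group has 1 list and the labels carry no replicate numbers. For the same reason leaving out a replicate could not be done. The planned shares of peaks at promoters and of promoters with a GA repeat were not run, since no promoter sequence or strand was used here. The unknown depth of each list limits every statement on a missing peak, above all for the 2-4 h list, whose scores were low.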
